A study of Rattus norvegicus with 14 samples.

Results

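The 5 genes described here, Ces2e, Mst1, Agxt2, Fmo1 and Aldh1a1, are liver genes with low signal in rats of a strain that the labels call Kyoto. They were chosen by their measured values: among genes with 1 symbol that passed the test in orotic acid fed Kyoto livers against fed Wistar livers, they had the 5 largest falls. The platform annotation gave each of them 1 probe set, a group of short probes for 1 transcript, out of 2670 genes with a symbol on the array. Those probe sets are D50580_at for Ces2e, X95096_at for Mst1, AB002584_at for Agxt2, M84719_at for Fmo1 and AF001898_at for Aldh1a1, and 0 of the 5 genes shared a probe set with another symbol. All 5 passed the filter on low signal, which took a gene's mean over the 14 arrays, so the Wistar arrays alone could carry a gene through it.

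The study measured liver RNA on 1-colour arrays in rats given plain chow or chow with 1% orotic acid, a pyrimidine precursor that produces a reversible fatty liver in rats. There were 2 arrays each of Kyoto livers after 1, 3 and 14 days of orotic acid. Wistar livers had 2 arrays after 3 days, 3 arrays after 14 days, and 3 arrays of controls without orotic acid. Kyoto controls were not analysed here, so every Kyoto array is of a rat fed orotic acid, which is what fed means below. Neither sex nor age stands in the labels, and whether each array was a separate animal is not spelled out, so the p-values measure the spread between these arrays.

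The genes have separate jobs in the hepatocyte. Ces2e encodes a carboxylesterase, a serine hydrolase of the endoplasmic reticulum that splits ester and amide bonds in drugs and lipids. Fmo1 encodes a flavin-containing monooxygenase of the same membrane system, which adds oxygen to nitrogen and sulphur atoms of foreign compounds, and Aldh1a1 encodes a cytosolic aldehyde dehydrogenase that turns retinaldehyde into retinoic acid. Agxt2 encodes a mitochondrial aminotransferase that uses glyoxylate and pyruvate as acceptors and clears dimethylarginines and beta-aminoisobutyrate, an end product of pyrimidine breakdown. Mst1 encodes macrophage stimulating protein, which hepatocytes secrete as an inactive precursor and which, once cut, binds the receptor tyrosine kinase encoded by Mst1r.

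The proximal promoters are shown to set side by side the starts of 5 genes chosen for a strain difference in the same direction. Each sequence below runs from 150 bases before the RefSeq start of the gene to 50 bases after it, read on the gene's own strand from the GRCr8 build, the genome of a Brown Norway rat and so of neither strain studied. Capitals mark matches to any of 7 motifs, searched on both strands. The windows are chr19:163749-163948 (plus strand) for Ces2e, chr8:117647292-117647491 (plus) for Mst1, chr2:61063266-61063465 (plus) for Agxt2, chr13:77747617-77747816 (minus) for Fmo1 and chr1:227537470-227537669 (plus) for Aldh1a1.
Ces2e: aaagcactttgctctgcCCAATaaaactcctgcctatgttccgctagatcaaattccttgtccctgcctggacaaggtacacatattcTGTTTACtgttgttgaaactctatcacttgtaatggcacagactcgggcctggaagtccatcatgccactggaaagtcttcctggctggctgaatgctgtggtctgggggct
Mst1: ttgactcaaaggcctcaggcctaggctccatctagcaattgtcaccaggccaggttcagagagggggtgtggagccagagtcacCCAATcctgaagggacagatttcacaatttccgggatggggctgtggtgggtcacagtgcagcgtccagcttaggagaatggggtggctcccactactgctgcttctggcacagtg
Agxt2: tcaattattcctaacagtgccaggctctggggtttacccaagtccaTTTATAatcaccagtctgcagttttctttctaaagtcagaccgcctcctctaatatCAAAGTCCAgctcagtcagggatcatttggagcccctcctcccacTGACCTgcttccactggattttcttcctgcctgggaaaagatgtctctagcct
Fmo1: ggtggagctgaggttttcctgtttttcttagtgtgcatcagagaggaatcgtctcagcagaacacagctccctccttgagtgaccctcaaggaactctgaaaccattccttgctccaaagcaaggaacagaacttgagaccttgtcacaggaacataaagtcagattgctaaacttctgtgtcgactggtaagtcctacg
Aldh1a1: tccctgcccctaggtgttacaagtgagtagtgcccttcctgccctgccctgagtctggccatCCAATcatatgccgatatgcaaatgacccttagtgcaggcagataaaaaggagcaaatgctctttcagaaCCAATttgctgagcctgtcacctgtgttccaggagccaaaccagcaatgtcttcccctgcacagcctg

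A CCAAT box (CCAAT) was the motif found most often, in 3 of the 5 promoters: at -133 in Ces2e, at -66 in Mst1, and at -88 and -18 in Aldh1a1, counting the first base of the match from the start. It occurred in 27.7% of all 33469 RefSeq promoters cut to the same window. The FOXA motif (TGTTTAC) was found in Ces2e at -62, against 2.40% of all promoters. Agxt2 held the HNF4 motif (CAAAGTCCA) at -48, the TATA box motif (TATAAA) at -104 and the nuclear receptor core site (AGGTCA) at -3, which occurred in 0.269%, 9.41% and 11.1% of all promoters. The C/EBP motif (TTGCGCAA) and the STAT5 motif (TTCNNNGAA) matched 0 of the 5 windows, against 0.128% and 5.70% of all promoters. No motif was found in all 5 windows, no printed matches overlap, and a match is a run of letters, not evidence of binding.

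Among the arrays labelled Wistar control, 1 had all 5 genes nearer the fed Kyoto than the fed Wistar mean. It bears on every value that uses the controls, and why it differs was not tested. The number 2 was assigned to it here, since the labels give no replicate numbers. On the array labelled Wistar control 2 all 5 genes lay below Wistar controls 1 and 3, where 35.8% of the 1909 features tested did, and all 5 lay at least 2.30-fold below the mean of those controls. On the log2 scale the difference from that mean was -3.76 for Mst1, -3.58 for Ces2e, -2.31 for Aldh1a1, -2.05 for Agxt2 and -1.20 for Fmo1, where 2.51% of the features tested were at least 2-fold lower. Ces2e is at the floor on that array, so its difference is a bound.

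On a log2 scale that puts the fed Kyoto mean at 1 and the fed Wistar mean at 0, the array labelled Wistar control 2 stood at 1 for Ces2e, 1.01 for Mst1, 0.873 for Agxt2, 0.655 for Fmo1 and 1.24 for Aldh1a1. Wistar controls 1 and 3 stood between -0.106 for Mst1 and 0.200 for Aldh1a1, both on control 1. The Kyoto day 1 arrays, which also did not enter the fed difference that ranked the genes, stood between 0.580 for Fmo1 and 1.67 for Aldh1a1. Over the 57 other features past the threshold in fed Kyoto against fed Wistar, the median position was 0.948 and 0.919 on the Kyoto day 1 arrays, 0.892 on the array labelled Wistar control 2, and 0.0898 and 0.194 on Wistar controls 1 and 3. Results that use the controls are therefore given with and without that array.

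**Figure D1:**
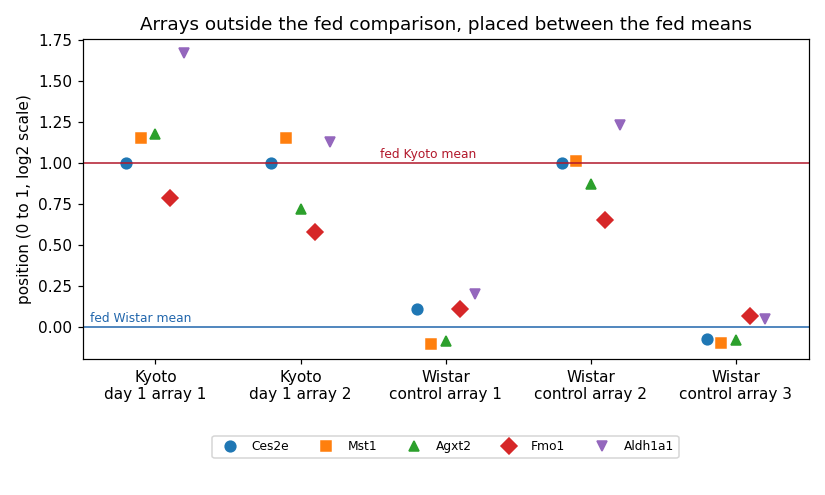
Position of each of the 5 genes on the 5 arrays outside the fed comparison, on a log2 scale with the fed Kyoto mean at 1 and the fed Wistar mean at 0. The array labelled Wistar control 2 lies with the Kyoto day 1 arrays, between 0.655 and 1.24, and Wistar controls 1 and 3 lie between -0.106 and 0.200.

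Ces2e was under the floor, the 25th percentile of all signals, on every Kyoto array. Quantile-scaled signals, on a linear scale, were 47.0 and 38.7 in Kyoto at day 1, 47.9 and 71.3 at day 3 and 96.5 and 32.1 at day 14. In Wistar they were 1729.6 and 1221 at day 3, 1592, 1699.8 and 1083 at day 14, 1095 and 1737 on controls 1 and 3, and 49.6 on the array labelled control 2. All 6 Kyoto arrays lay under the floor of 115, and the lowest of the other 7 Wistar arrays lay 9.40-fold above that floor, so the gap between the groups was at least 9.40-fold. The Kyoto median was 47.4, against 1592 on the other 7 Wistar arrays.

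Fmo1 was low in Kyoto but above the floor on every array. Its signals were 358 and 484 at day 1, 295 and 218 at day 3 and 169 and 426 at day 14 in Kyoto. Wistar livers had 1337 and 820.2 at day 3, 1078, 1732 and 929 at day 14, 967 and 1029 on controls 1 and 3, and 433 on the array labelled control 2. The groups did not overlap outside that array, but with a gap of 1.69-fold this was the smallest gap of the 5 genes.

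Aldh1a1 was above the floor on every array in both strains. Kyoto livers had 252 and 551 at day 1, 673 and 429 at day 3 and 908 and 742 at day 14. Wistar livers had 2879 and 3173 at day 3, 2822, 2460.2 and 2755 at day 14, 2105 and 2607 on controls 1 and 3, and 473 on the array labelled control 2. The gap was 2.32-fold, and in Kyoto the highest values were the 2 arrays of day 14.

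Agxt2, also above the floor throughout, had a 1.98-fold range among the Kyoto arrays, against 2.86-fold for Fmo1 and 3.60-fold for Aldh1a1. Its signals were 250.2 and 495 in Kyoto at day 1, 278 and 317 at day 3 and 317 and 413 at day 14. In Wistar they were 1586 and 1406 at day 3, 1246, 1881 and 1257 at day 14, 1658 and 1636 on controls 1 and 3, and 396 on the array labelled control 2. The highest Kyoto array lay 2.52-fold below the lowest of the other 7 Wistar arrays.

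Mst1 crossed the floor within the Kyoto arrays, and its highest Kyoto signal was 2.37-fold above the floor. Kyoto livers had 28.1 and 99.9 at day 1, 143 and 110.3 at day 3 and 274 and 164 at day 14. Wistar livers had 1388 and 1714 at day 3, 1671, 1865 and 1979.9 at day 14, 2192 and 2152 on controls 1 and 3, and 161 on the array labelled control 2. On 3 of the 6 Kyoto arrays Mst1 was under the floor, among them both of day 1, and the gap to the other 7 Wistar arrays was 5.07-fold.

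**Figure D2:**
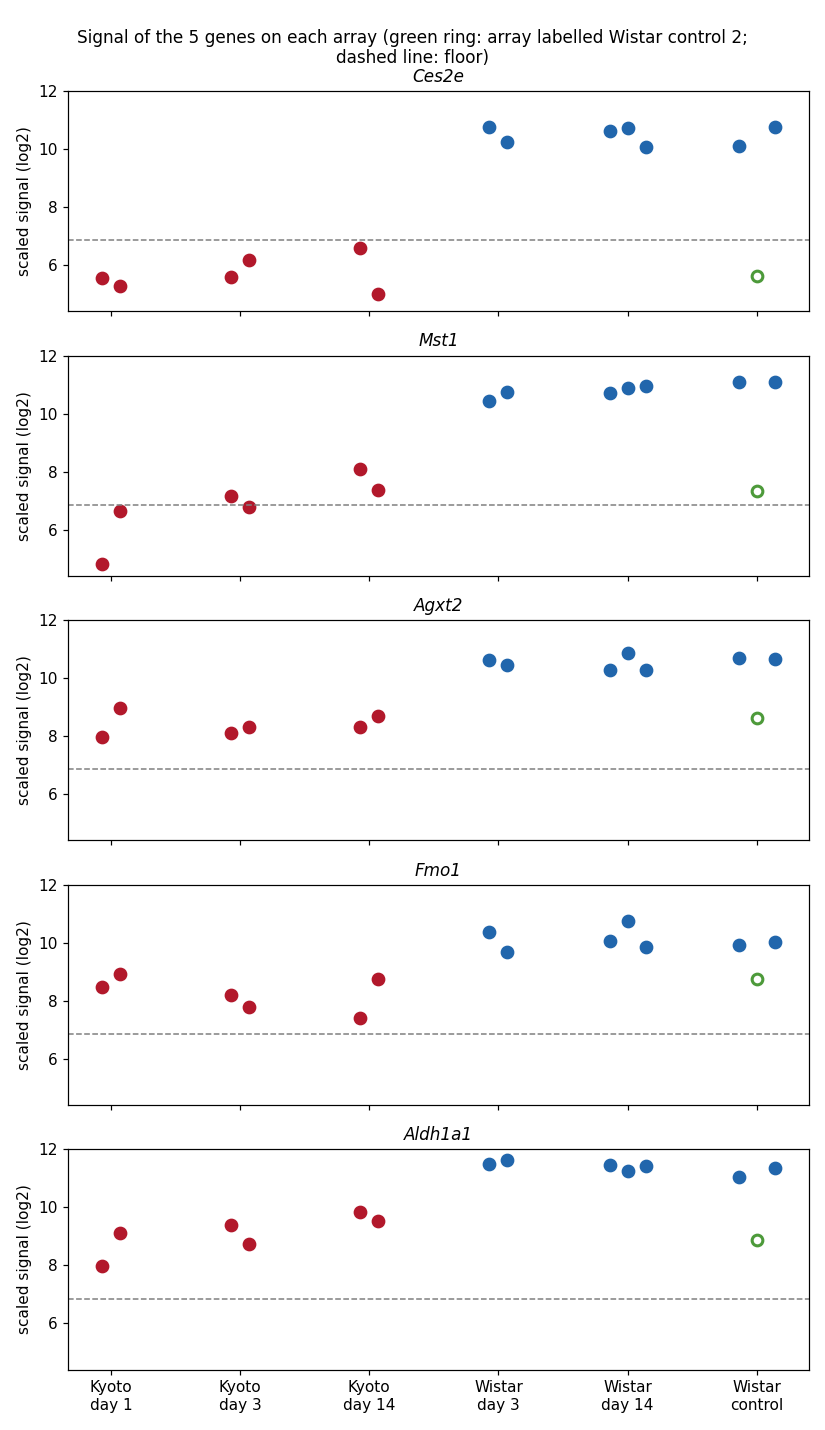
Quantile-scaled signal (log2) of the 5 genes on each of the 14 arrays, in groups of strain and day, with the floor as a dashed line at 6.85. Kyoto arrays (red) lie below the Wistar arrays (blue) in every panel, Ces2e lies under the floor on all 6 Kyoto arrays, and the array labelled Wistar control 2 (green ring) lies at the Kyoto level.

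For all 5 genes the 6 Kyoto arrays lay below the 7 Wistar arrays other than the one labelled control 2, as did 2.25% of the 1909 features tested. Because 4 of those Kyoto arrays and 5 of those Wistar arrays gave the fed difference that ranked the genes, this count describes the choice. The fed difference, averaged over the differences at days 3 and 14 between 4 Kyoto and 5 Wistar arrays, was -3.65 ± 0.57 (log2 ± SE) for Ces2e, at least 12.5-fold, and -3.35 ± 0.59 for Mst1 (10.2-fold), which had 1 of the 4 fed Kyoto arrays at the floor. It was -2.16 ± 0.38 for Agxt2 (4.46-fold), -2.10 ± 0.33 for Fmo1 (4.30-fold) and -2.10 ± 0.41 for Aldh1a1 (4.28-fold). In that comparison 62 features, 3.25% of those tested, passed an adjusted p of 0.05 (limma, Benjamini-Hochberg) in either direction, 38 (1.99%) were lower in Kyoto, and 26 of these had 1 symbol.

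The boundary of the group falls within a run of similar values. The member nearest to it was Aldh1a1 at 4.28-fold, and the first gene outside was Serpina3m, which encodes a serine protease inhibitor, at 4.13-fold, followed by Idi1, the isomerase that makes the second building block of isoprenoids, at 3.83-fold. Taken by day, the strain difference in Ces2e was -3.66 at day 3 and -3.63 at day 14 (log2). Both are bounds, since its fed Kyoto arrays lie at the floor. The day 3 and day 14 differences were -3.58 and -3.12 for Mst1, -2.33 and -1.99 for Agxt2, -2.05 and -2.16 for Fmo1, and -2.49 and -1.70 for Aldh1a1.

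Whether the low signal sits at background differed between the genes. Among all probe sets of its own array, Ces2e stood between percentiles 2.28 and 19.9 on the Kyoto arrays, against 77.0 to 83.2 on the other 7 Wistar arrays. Background was read from 2 sense-strand control probe sets, which should find no target: their 28 signals had a median of 47.7, and 3 exceeded the floor. Over the 13 arrays other than Wistar day 14 array 3 the highest was 123, on a Kyoto array, and on Wistar day 14 array 3 they were 231 and 342. Set against both control probe sets of the same array, Ces2e was higher on 4 of the 6 Kyoto arrays. The Kyoto median of Ces2e, 47.4, lay beside that background median, which pools the controls of both strains. On the 6 Kyoto arrays alone the control signals ran from 14.5 to 123.

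Mst1 spanned percentiles 1.70 to 49.6 in Kyoto, against 80.4 to 85.8 on the other 7 Wistar arrays. It was higher than both control probe sets of the same array on 6 of the 6 Kyoto arrays, and higher than the largest control signal of any Kyoto array on 3. Agxt2, Fmo1 and Aldh1a1 were above that largest Kyoto control signal on 6 of 6, although the control signal of 342 on Wistar day 14 array 3 lies within the Kyoto range of each. On the Kyoto arrays Agxt2 stood at percentiles 47.2 to 63.6, Fmo1 at 36.4 to 63.1 and Aldh1a1 at 47.5 to 74.3.

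These percentiles do not by themselves mark a transcript as present, since genes without known hepatocyte expression also gave signal. Of 4 such genes with a value, Myl1, of skeletal muscle myosin, was under the floor on 14 of the 14 arrays. Cga, of pituitary hormones, was under it on 1 array, and the insulin genes Ins1 and Ins2 on 0 arrays. Ins2 gave signals of 233 to 619 and Ins1 of 125 to 263. The Kyoto medians of Agxt2 (317) and Fmo1 (326) lay within the Ins2 range, and that of Aldh1a1 (612) near its upper end. Signals of different probe sets are not calibrated against each other.

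**Figure D3:**
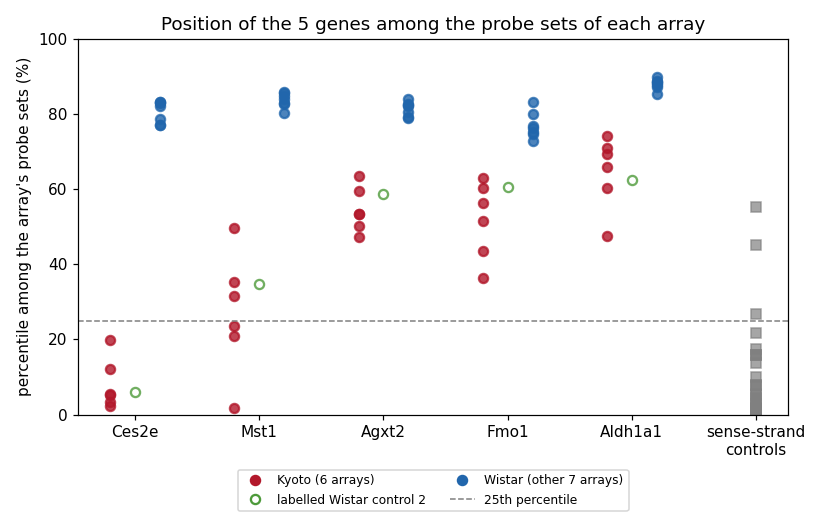
Percentile of each gene's signal among all probe sets of the same array, for the 6 Kyoto arrays (red), the array labelled Wistar control 2 (green ring) and the other 7 Wistar arrays (blue), beside 28 values of 2 sense-strand control probe sets (grey). Ces2e lies under the 25th percentile on all 6 Kyoto arrays, Mst1 straddles it, and Agxt2, Fmo1 and Aldh1a1 lie above it.

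Kyoto day 1 against Wistar control compares 2 Kyoto with 3 Wistar arrays that the fed difference did not use. These arrays did enter the filter on low signal and the common estimate of spread behind the fed test. Strain and 1 day of feeding cannot be told apart in this comparison. With all arrays, 0 of the 5 genes passed the threshold, where 14 of 1909 features (0.733%) did in either direction and 0.262% were lower; at an unadjusted p under 0.05, 4 of the 5 genes, all but Fmo1, and 320 features (16.8%) were counted. The differences were -2.98 ± 0.79 for Mst1 (log2 ± SE, limma adjusted p = 0.0920), -2.39 ± 0.77 for Ces2e (adjusted p = 0.137), -1.88 ± 0.56 for Aldh1a1 (adjusted p = 0.110), -1.54 ± 0.51 for Agxt2 (adjusted p = 0.145) and -0.86 ± 0.45 for Fmo1 (adjusted p = 0.357). On floored values, 1 of the 5 genes, Mst1, was lower on both Kyoto day 1 arrays than on all 3 controls. The same held for 14.7% of features. Ces2e was tied at the floor on both Kyoto day 1 arrays and on the array labelled control 2.

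Without the array labelled Wistar control 2, 4 of the 5 genes passed, all lower in Kyoto. Of 1909 features, 41 (2.15%) passed in either direction and 1.31% were lower. That array was left out for its values, those of these 5 genes among them, so the p-values below are no independent test. Leaving it out raised the control mean of each of the 5 genes and lowered its SE. Mst1 fell by 4.22 ± 0.28 on the log2 scale, at least 18.7-fold (limma adjusted p = 2.70e-06), and Ces2e fell by 3.57 ± 0.30, at least 11.9-fold (adjusted p = 2.86e-05). Aldh1a1 fell by 2.64 ± 0.35, which is 6.23-fold (adjusted p = 0.00143), and Agxt2 fell by 2.22 ± 0.33, which is 4.65-fold (adjusted p = 0.00310). Fmo1 had a difference of -1.26 ± 0.43, or 2.39-fold, and did not pass (adjusted p = 0.155). Without Kyoto day 1 array 2 instead, 195 features were called, among them 1 of the 5 genes, Aldh1a1, at -2.45 (adjusted p = 0.0392).

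All 5 genes were lower on both Kyoto day 1 arrays than on Wistar controls 1 and 3, as were 21.7% of the features tested. The arrays labelled lot batch 1 hold both Kyoto day 1 arrays and 2 controls, 1 and the one labelled 2. Within that lot, the Kyoto day 1 mean minus the mean of both controls was -1.62 for Ces2e, -2.36 for Mst1, -1.20 for Agxt2, -0.64 for Fmo1 and -1.42 for Aldh1a1 (log2). Against Wistar control 1 alone it was -3.25, -4.25, -2.24, -1.22 and -2.50 for these genes in that order, and against the array labelled control 2 alone it was 0, -0.48, -0.17, -0.06 and -0.34. Within the arrays that lack values in some rows, Kyoto day 1 array 1 minus Wistar control 3 was -3.91, -4.22, -2.71, -1.52 and -3.37 for the same genes in that order. Neither set was tested on its own. With the lot batch as a block in the fit of all arrays, 0 of the 5 genes passed, as without the block. The lot label is missing on Wistar day 3 array 2, Wistar day 14 array 3 and Wistar control 3. The block sets lot 1 against these unlabelled arrays, all of them Wistar, so it does not adjust for known lots.

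With no floor and without the array labelled control 2, a setting chosen after the data were seen, Ces2e fell by 5.01 on the log2 scale (32.3-fold, limma adjusted p = 8.74e-05) and Mst1 fell by 5.35 (40.7-fold, adjusted p = 8.27e-05). These folds rest on Kyoto signals under the floor, where values have no firm order. The SEs of Ces2e and Mst1 were 0.46 and 0.46, against 0.30 and 0.28 with the floor. The floor gives the Kyoto arrays under it 1 value, which lowers the estimated spread. The other 3 genes do not reach the floor, and their differences were the same as with it.

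Over days of feeding in Kyoto, 0 of the 5 genes passed in any comparison. The shares of all features that passed were 0% in day 3 against day 1, 0% in day 14 against day 3 and 0.0524% in day 14 against day 1, so these comparisons of 2 arrays with 2 made few calls of any kind. Without Kyoto day 1 array 2, 80 features passed in day 3 against day 1 and 162 in day 14 against day 1, and 0 of the 5 genes were among them. Ces2e, held at the floor on all 6 arrays, had a difference of 0 in each of them, and with no floor its day 14 minus day 1 difference was 0.38 (95% interval -2.10 to 2.87).

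In day 14 against day 1 with the floor, Aldh1a1 had the largest difference, 1.14 (log2, 95% interval -0.17 to 2.45, limma adjusted p = 0.543). With no floor and all arrays, Mst1 had a larger one, 2.00 (-0.04 to 4.04, limma adjusted p = 0.504), on day 1 signals under the floor. Both day 14 arrays lay above both day 1 arrays for Aldh1a1 and for Mst1. With the floor, Mst1 had 0.88 (-0.99 to 2.74, limma adjusted p = 0.741), Agxt2 0.04 (-1.15 to 1.23, adjusted p = 0.981) and Fmo1 -0.63 (-1.69 to 0.42, adjusted p = 0.687). The intervals leave room for changes of more than 2-fold in either direction for Agxt2 and Ces2e. They also leave room for a rise of more than 2-fold for Mst1 and Aldh1a1, and for such a fall for Fmo1.

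Leaving out the array labelled Wistar control 2, which widens the common estimate of spread, narrowed these intervals without holding a Kyoto value. Aldh1a1 then had 1.14 (0.38 to 1.89, limma adjusted p = 0.280) and Mst1 0.88 (0.27 to 1.48, adjusted p = 0.283), both short of the threshold over all features. With no floor as well, Mst1 had 2.00 (1.00 to 3.00, adjusted p = 0.132) for day 14 minus day 1. Both Kyoto day 1 signals of Mst1, 28.1 and 99.9, lay under the floor, so the size of this difference is not resolved. Even the highest Mst1 signal at day 14, 274, stayed 5.07-fold under the lowest of the 7 other Wistar arrays.

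Between day 3 and day 14 no change of the strain difference was called for any of the 5 genes, or for any of the 1909 features (0% in limma, 99 features at an unadjusted p under 0.05). The interaction, the Kyoto day 14 minus day 3 difference less the same difference in Wistar, was largest in Aldh1a1, at 0.79 (log2, 95% interval -0.99 to 2.56, adjusted p = 0.922). There both day 14 arrays were higher than both day 3 arrays in Kyoto, and all 3 day 14 arrays were lower than both day 3 arrays in Wistar. It was 0.47 for Mst1, 0.34 for Agxt2 and -0.12 for Fmo1. For Ces2e it was 0.02, which holds only the Wistar difference, since its 4 fed Kyoto arrays lie at the floor. With no floor and all arrays, Ces2e had -0.05 (95% interval -3.42 to 3.32), so constancy over these days is not resolved.

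In Wistar livers, feeding moved 0 of the 5 genes past the threshold at day 3 or day 14 against control, with 0% of features called by limma in each (200 and 99 at an unadjusted p under 0.05). With all arrays, every difference was positive, from 0.47 for Fmo1 to 1.27 for Ces2e at day 3 and from 0.48 for Agxt2 to 1.25 for Ces2e at day 14. Without the array labelled control 2 they ran from -0.49 for Mst1 to 0.36 for Aldh1a1 at day 3, and from -0.24 for Mst1 to 0.27 for Fmo1 at day 14. The signs of Mst1 and Agxt2 turned at both times. In that fit the 95% intervals of Ces2e were -0.58 to 0.73 at day 3 and -0.55 to 0.65 at day 14. With no floor as well they were wider, -0.92 to 1.08 and -0.86 to 0.96, since the floor lowers the estimated spread of Ces2e.

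**Figure D4:**
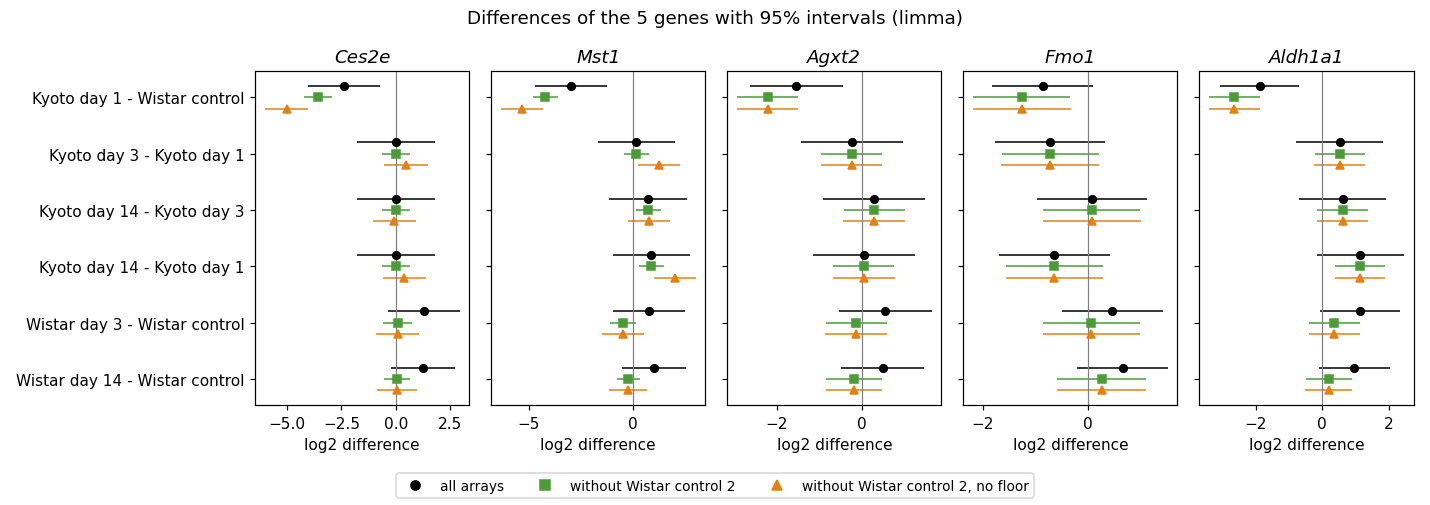
Differences (log2) of the 5 genes with 95% intervals from limma, in 6 comparisons down the page, with all arrays (black), without the array labelled Wistar control 2 (green), and without it and with no floor (orange). Kyoto day 1 against Wistar control is the only comparison whose intervals lie apart from 0 for all 5 genes without that array. The array was left out for its values, those of these genes among them.

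The array held few relatives of these genes, and those tested had smaller falls in the fed comparison. The choice of genes largely fixed this, since any called gene with 1 symbol and a larger fall would have been a member. Of 4 carboxylesterases and related esterases on the array, the 3 besides Ces2e were tested, and 0 passed in fed Kyoto against fed Wistar: Ces1d, the hepatic triacylglycerol hydrolase, had -0.65 ± 0.38 (log2 ± SE, limma adjusted p = 0.498) and Ces1e -0.34 ± 0.20 (adjusted p = 0.503). The median of the 3 was -0.34, against 0.04 over all features. Fmo1 was the only flavin monooxygenase of 6 listed that the array held. Of 6 other aldehyde dehydrogenases tested 0 passed, with a median of -0.15: Aldh2, the mitochondrial acetaldehyde enzyme, had -0.21 ± 0.18 (adjusted p = 0.669) and Aldh1l1, a folate enzyme, -0.23 ± 0.21 (adjusted p = 0.691).

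The pathway partners were likewise mostly uncalled in the fed comparison. Of 6 retinoid genes besides Aldh1a1, 0 passed, and the 2 retinol dehydrogenase genes with the smallest p lay on either side of 0, Rdh7 at 0.55 ± 0.27 (limma adjusted p = 0.391) and Rdh16 at -0.61 ± 0.33 (adjusted p = 0.446). Around Agxt2, 1 of 16 genes of aminotransferases, dimethylarginine and pyrimidine breakdown fell: Oat, ornithine aminotransferase, by 0.83 ± 0.21 (adjusted p = 0.0417). Around Mst1, 0 of 4 tested genes passed, including Klkb1, of plasma kallikrein, at 0.32 ± 0.21 (adjusted p = 0.555), and Hpn, of the surface protease hepsin, at 0.26 ± 0.21 (adjusted p = 0.646). The medians of these lists were -0.03 for retinoid genes, 0.04 around Agxt2 and 0.14 around Mst1. Mst1r, the receptor gene, is not among those tested.

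Of 10 liver transcription factors tested, 0 passed in fed Kyoto against fed Wistar. Cebpa, of a hepatocyte differentiation factor, had -0.58 ± 0.23 (log2 ± SE, limma adjusted p = 0.240) and Onecut1, of hepatocyte nuclear factor 6, 0.46 ± 0.34 (adjusted p = 0.603). Of 17 growth hormone dependent or sex-dimorphic genes, 2 fell and 0 rose: Cyp2a2, a male-predominant testosterone hydroxylase of rat liver, by 1.53 ± 0.29 (adjusted p = 0.0127), and Car3, a carbonic anhydrase, to a level 2.15-fold lower (adjusted p = 0.0171). In Kyoto day 1 against Wistar control Cyp2a2 fell by 2.46 ± 0.39 (adjusted p = 0.0129) and Cyp2a1, a steroid hydroxylase, by 1.27 ± 0.23 (adjusted p = 0.0301). Without the array labelled control 2, Cyp3a18, of another hydroxylase, also fell by 2.89 ± 0.59 (adjusted p = 0.0204). In that comparison, 0 genes of the other 6 lists passed, with or without that array.

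**Figure D5:**
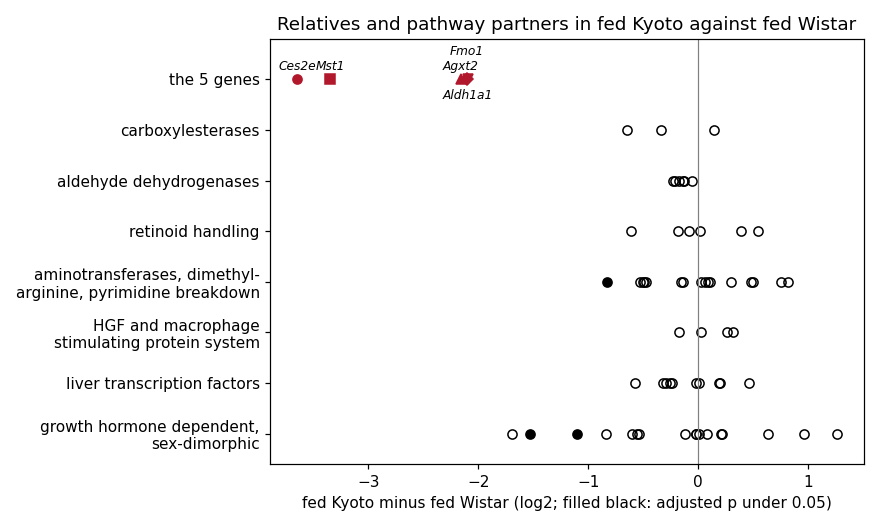
Differences of fed Kyoto minus fed Wistar (log2) for the 5 genes (red) and for the tested genes of 7 lists of relatives and partners (black, filled where limma's adjusted p is under 0.05). The 5 genes, chosen as the largest called falls in this comparison, lie between -3.65 and -2.10. Of the list genes 3 are filled, Oat, Cyp2a2 and Car3.

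The 5 genes lie on 5 chromosomes, 19, 8, 2, 13 and 1. Up to 3 measured genes on either side of each gave 27 neighbours, of which 19 were tested. In fed Kyoto against fed Wistar 0 of the 19 passed in limma, and their median difference was 0.03, against 0.04 over all features. The neighbour with the smallest adjusted p was Rfk, of riboflavin kinase, at -0.84 ± 0.29 (adjusted p = 0.145). It was the furthest of the 3 measured genes before Aldh1a1. Of the nearest measured genes on either side of Mst1, Gnai2 had -0.02 ± 0.22 (adjusted p = 0.975) and Apeh 0.07 ± 0.19 (adjusted p = 0.893). Genes without a measurement may lie between.

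The genes whose pattern over the 14 arrays came closest to that of the group were found by correlation with the mean of the 5 centred genes. They were Serpina3m (Pearson's r = 0.975), Hsd17b6 (r = 0.932), Cyp2d3 (r = 0.928), Gng10 (r = 0.925) and Papss2 (r = 0.920). For all 5 genes the 6 Kyoto arrays and the one labelled Wistar control 2 lay below the other 7 Wistar arrays. The same held for 1.99% of the features tested. These correlations therefore mostly measure that separation. Between the members r was 0.802 to 0.974 over the 14 arrays. Within the 6 Kyoto arrays, on unfloored signals, it ran from -0.958 for Ces2e with Fmo1 to 0.965 for Mst1 with Aldh1a1, and within the 7 Wistar arrays from -0.658 for Mst1 with Aldh1a1 to 0.688 for Ces2e with Fmo1. The Kyoto values of Ces2e on all 6 arrays and of Mst1 on 3 lie under the floor, where signals have no firm order, so the within-Kyoto values that involve them are not resolved. Among Agxt2, Fmo1 and Aldh1a1, r within Kyoto was -0.263 to 0.509.

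The tissue label was borne out by hepatocyte markers, which did not follow the 5 genes. In bulk liver, fewer cells of a type and less RNA per cell cannot be told apart. The summed signal of 18 of 20 listed hepatocyte markers was 290917 to 310068 on the Kyoto arrays, 302159 on the array labelled Wistar control 2 and 281178 to 301644 on the other 7 Wistar arrays. In fed Kyoto against fed Wistar 0 of the 18 passed, with a median difference of 0.04. Kupffer cell and macrophage markers, 5 of 12, summed to 5651 to 7689 in Kyoto, 6203 on the array labelled Wistar control 2 and 4536 to 6192 on the other 7 Wistar arrays; Clec4f, a Kupffer cell receptor gene, rose 1.76-fold (limma adjusted p = 0.0416).

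Endothelial markers, 3 of 10, summed to 554 to 693 in Kyoto, 618 on the array labelled control 2 and 410.3 to 616 on the other Wistar arrays. Blood markers, 3 of 13, summed to 6861 to 16528 in Kyoto, 13735 on the array labelled control 2, and 5975 to 9711 on the others. Stellate cell and fibroblast markers, 8 of 12, summed to 6761 to 13001 in Kyoto, 9435 on the array labelled control 2 and 5898 to 10594 on the other Wistar arrays. Bile duct markers, 2 of 8, were both at the floor on every array except Kyoto day 1 array 1, where 1 of them was. The part of these cell types in the low signals was not tested.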

How the data were processed

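Liver RNA of 14 rat samples was hybridised to 1-colour Affymetrix arrays. Per the submitters' processing notes, MAS5 gave the signal intensity that the authors deposited for each of 4502 probe sets; neither its version nor its scaling target is stated there. Deposited medians were equal on 11 arrays, and 375 rows with missing values were dropped. The 2% trimmed means spread by 25.1%, above a limit of 5%, so the log2 signals computed from the deposited intensities were quantile normalized (limma 3.58.1, R 4.3.3) and given a floor at the 25th percentile, 115. Each gene kept its brightest probe set, and the upper 60% of 3181 features by mean, 1909, were tested. The 6 group means were fitted in limma with an intensity trend, which left 8 residual degrees of freedom and gave differences, 95% intervals and Benjamini-Hochberg adjusted p-values over all 1909, with a threshold of 0.05. A fold with every array of one side at the floor is a lower bound, written as at least. Per-array signals are given unfloored. The number of arrays limits precision. The code was tested on simulated data. Alternatives changed the scaling, floor, filter, block, spread estimate and arrays. Named genes are the 5 members, up to 4 called or 2 smallest-p genes per list, chosen neighbours and the closest patterns; other names were chosen after their values were seen. The members, gene lists and tests were chosen with earlier results of these data known. Promoters are from RefSeq (GRCr8), matched by symbol for 5 of 5 members. Probe sequences were not used here.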

Additional observations from a re-analysis of the deposited data

How the results depend on the processing

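The fed strain differences of the 5 genes kept their sign in every alternative run, and so did the Kyoto day 1 against Wistar control differences. The fed counts of these genes were largely set by the choice, since they were chosen for passing in that comparison. There, 5 of the 5 genes passed in the alternatives that kept all arrays, apart from those named next. With the upper 40% of features Ces2e was not tested and the other 4 passed. With no filter on low signal 0 of the 5 genes passed (limma adjusted p from 0.0719 to 0.0974) and 1 feature in all did. With the lot batch as a block, which sets lot 1 against arrays without a lot label, Aldh1a1 had -1.86 (limma adjusted p = 0.0610). Leaving out 1 array gave 3 to 5 genes, the 3 being without Kyoto day 14 array 1, and 11 to 89 features. Features called in the fed comparison numbered 40 with the upper 40% of features, 20 with the lot batch block, 103 with only the groups compared and 135 with array weights, against 62.

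In Kyoto day 1 against Wistar control, 14 features were called with the main settings. The count was 40 for signals as deposited, 39 with median centring, 23 with a floor at the 40th percentile, 5 with no filter, 9 with the upper 40% of features, 9 with the lot batch block, 22 with a block for arrays with missing rows, 1 with only the groups compared and 1 with array weights. Of the 5 genes, 1 (Mst1, -4.11, adjusted p = 0.0466) was called with no floor. With no floor and without Wistar control 2, chosen after seeing the data, 4 genes and 37 features were. Leaving out 1 array gave 0 to 4 genes and 2 to 195 features, the 4 being without Wistar control 2 and the 195 without Kyoto day 1 array 2.

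In the Kyoto day comparisons 0 of the 5 genes were called under any alternative. All features called in day 3 against day 1 numbered 2 with no filter and 0 to 80 with 1 array left out. In day 14 against day 3 they numbered 1 with no filter, 1 with array weights and 0 to 1 with 1 array left out. In day 14 against day 1 they numbered 3 with no filter, 4 with every probe set on its own, 0 with only the groups compared, 0 with array weights and 0 to 162 with 1 array left out. Wistar day 3 against control gave 1 with every probe set on its own, 5 with only the groups compared, 18 with array weights and 0 to 6 with 1 array left out. Wistar day 14 against control gave 1 with array weights and 0 to 7 with 1 array left out.

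Signs turned among uncalled differences. With 1 array left out, day 3 minus day 1 in Kyoto ran from -0.74 to 0.25 for Agxt2 and from -0.0365 to 1.09 for Aldh1a1. Day 14 minus day 3 ran from -0.58 to 0.75 for Fmo1, and day 14 minus day 1 from -0.45 to 0.53 for Agxt2 and from -1.30 to 0.0321 for Fmo1. Wistar day 3 minus control ran from -0.14 to 0.89 for Agxt2 and from -0.49 to 1.39 for Mst1; day 14 minus control ran from -0.20 to 0.83 and from -0.24 to 1.64 for the same genes. With no floor and without Wistar control 2 these 4 lowest values were the same, -0.14, -0.49, -0.20 and -0.24. The interaction ran from -0.23 to 0.27 for Ces2e and from -0.78 to 0.55 for Fmo1 with 1 array left out. For Ces2e it was -0.14 for signals as deposited, -0.15 with median centring, -0.0496 with no floor, -0.0574 with the lot batch block, -0.0164 with array weights, and -0.0473 with no floor and without Wistar control 2. Where no construction of the alternative shows it, the cause was not tested. No paired analysis was possible because the labels give no replicate numbers, and the numbers used follow accession order only.

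The limits are the small groups, the missing Kyoto controls, and 1 array labelled Wistar control with these genes nearer the Kyoto level, for a reason not tested. Signals near the floor are not resolved, so Ces2e on all Kyoto arrays and Mst1 on 3 of them have bounds only. Each gene rests on 1 probe set, so splice forms and close relatives could not be told apart.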
